A study of Danio rerio with 3 samples.

Results

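Regulators of the integrated stress response and of the unfolded protein response were measured as transcripts in zebrafish (Danio rerio) embryos that carried the morpholino MO-grnA and in untreated wild-type embryos. The set holds 10 genes, chosen by symbol: the sensors atf6 and ern1, the transcription factors atf4a, atf4b, ddit3, atf3 and xbp1, the phosphatase subunits ppp1r15a and ppp1r15b, and the growth inhibitor ddit4. Array probes were assigned by matching the RefSeq accession that the files give for each probe to a gene symbol. That found 10 probes for 8 of the 10 genes, among 11668 named genes on the array, and no probe matched ppp1r15b or ern1. Of the 8 genes, 7 had a probe that entered the fit across all probes, and atf4a did not, because its spot was marked as an outlier on 1 array. These genes were chosen with results of the same comparison known, so their ratios are given as a description and without p-values.

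Morpholinos are antisense oligomers that block translation or splicing, and MO-grnA is named for granulin A (grna), a zebrafish relative of the secreted growth factor and lysosomal protein progranulin. Morphant embryos received 2 to 3 nl at the 1-cell stage, and wild-type embryos had no treatment, so injection and morpholino cannot be told apart in these ratios. Both groups were collected at 22 hours post fertilization (hpf), with 200 embryos per group and replicate, and no strain is named in the labels. Total RNA of both groups was hybridised together on each of 3 Agilent arrays with 2 colours, with morphant RNA in Cy5 on replicates 1 and 2 and in Cy3 on replicate 3, the dye swap.

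In the integrated stress response, kinases that sense starvation, haem shortage, viral RNA or misfolded protein phosphorylate the initiation factor eIF2alpha. General translation falls, while translation of the transcription factor ATF4 rises. ATF4 then raises transcription of genes for amino acid supply, of the factors CHOP (ddit3) and ATF3, and of GADD34 (ppp1r15a), which brings a phosphatase to eIF2alpha and closes the loop. The unfolded protein response of the endoplasmic reticulum uses this route together with a pair of other arms, the splicing of xbp1 mRNA by IRE1 (ern1) and the release of the membrane-bound factor ATF6 by proteolysis. These roles are known chiefly from mammals and yeast. Translation of atf4 mRNA, splicing of xbp1 and cleavage of Atf6 are not measured by transcript probes of this kind.

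Per array, 28635 to 31551 spots exceeded background clearly with morphant RNA and 28822 to 31010 with wild-type RNA. Median spot intensities ran from 114 to 446.5 for morphant and from 110.5 to 191 for wild-type RNA, and 7.49% of the spots on replicate 1 were marked as outliers, against 0.915% and 0.909% on replicates 2 and 3. Of 10 markers of embryonic tissues at this stage, 9 were well above background in both groups on all 3 arrays, and kdrl, of endothelium, was so on 1 array in each group. The probe of the targeted gene grna was higher in morphants (log2 ratio 0.31, SE 0.08, n = 3, adjusted p = 0.0227 in limma), which does not check the labels, since a morpholino need not lower its transcript. In whole embryos, fewer cells of a type and less RNA per cell cannot be told apart.

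The stress regulators did not move as a block. Transcript of ddit4 was 2.59-fold higher in morphants, ddit3 and atf3 were modestly higher (1.28-fold and 1.25-fold), and ppp1r15a was 3.74-fold lower. Both atf4 genes lay below wild type, and xbp1 and the brighter atf6 probe stayed near it. Among the 7 genes in the fit, 3 were higher and 2 lower at an adjusted p under 0.05, beside a background of 41.3% of all 9231 named genes past that threshold (19.3% higher and 22% lower). Over all tested probes, named or not, the background was 37.6%, with 18% higher and 19.6% lower. At least 2-fold apart were 2 of the 7, ddit4 on the higher and ppp1r15a on the lower side, where 4.17% of named genes were, 1.65% higher and 2.52% lower. The median log2 ratio over the 7 genes was 0.04, against -0.00077 over all named genes. The sign of the members' median was not stable, at -0.01 without replicate 1, -0.03 without replicate 2 and -0.07 with marked spots kept. Without replicate 2 and with marked spots kept it covers 8 genes, because atf4a entered the fit. With median centring the members' median was 0.19, where that of all tested probes was 0.10.

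**Figure D1:**
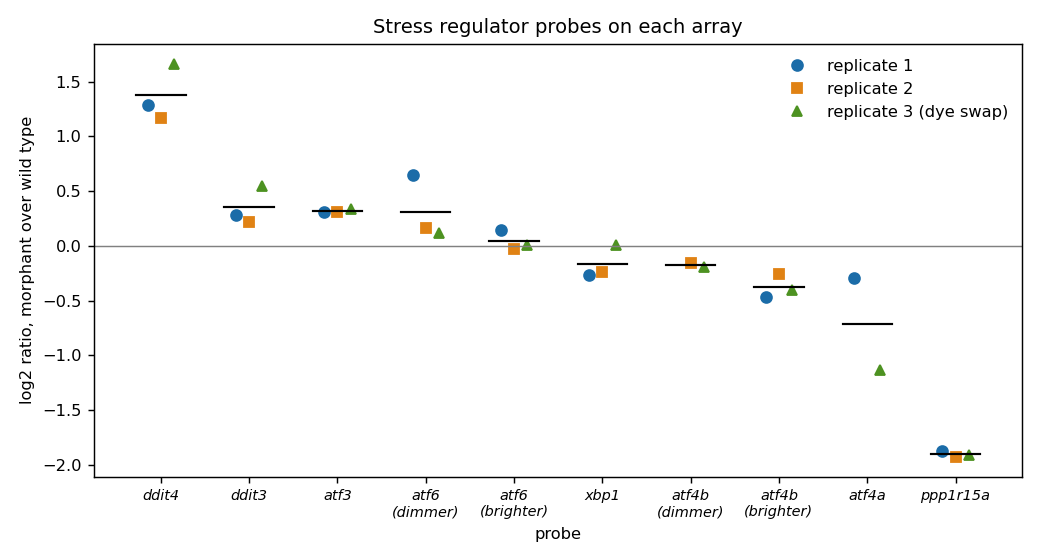
Log2 ratio of morphant over wild type (vertical axis) for each of the 10 probes (horizontal axis), with a symbol per replicate and a bar at the mean of the arrays. The ddit4 points lie between 1.17 and 1.67 and those of ppp1r15a between -1.93 and -1.87, while atf4a and the dimmer atf4b probe have 2 points each because 1 spot was marked as an outlier.

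The sensor Atf6 is a transcription factor held in the membrane of the endoplasmic reticulum that is cut free when misfolded protein builds up. The brighter of its probes (A_15_P184291, accession NM_001110519) had normalized log2 intensities of 9.28, 9.27 and 9.20 in morphants on replicates 1, 2 and 3, against 9.13, 9.31 and 9.19 in wild type. The groups overlapped, and the log2 ratios of 0.14, -0.03 and 0.01 had mixed signs (mean 0.04, SD 0.09, n = 3). The dimmer atf6 probe (A_15_P184286) gave 8.44, 8.03 and 8.03 in morphants, against 7.80, 7.87 and 7.92 in wild type. Here each morphant value was above each wild-type value, but the ratio of replicate 1 (0.64) stood well above those of replicates 2 and 3 (0.17 and 0.12), and the probe did not pass the threshold. Its mean log2 ratio was 0.31 (SD 0.29, n = 3), or 0.14 on replicates 2 and 3 alone, which share a slide.

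Zebrafish carry atf4a and atf4b, a pair of genes for the factor that stands at the centre of the integrated stress response. The atf4b probe in the fit (A_15_P101366, accession NM_001103192) had log2 intensities of 15.26, 15.38 and 15.28 in morphants, against 15.72, 15.63 and 15.68 in wild type. All morphant values were below all wild-type values, and the log2 ratios were -0.46, -0.25 and -0.40 (mean -0.37, SD 0.11, n = 3). A second atf4b probe (A_15_P548712), marked on replicate 1, gave log2 ratios of -0.16 and -0.19 on replicates 2 and 3, the same direction at a smaller size.

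The atf4a probe (A_15_P110418, accession NM_213233) was marked on replicate 2 and had usable values on replicates 1 and 3 only. Its log2 intensity was 16.38 and 15.82 in morphants, against 16.68 and 16.96 in wild type. The log2 ratios were -0.29 and -1.13, both below 0 but far apart, and they came from opposite dye orientations. The marked spot of replicate 2, when it was kept, gave -0.33, close to replicate 1, where morphant RNA carried the same dye. With marked spots kept the mean was -0.59 (SD 0.45, n = 3) and the probe passed the threshold, as it did without replicate 2 (-0.71). So with the marked spot kept the direction was shared by 3 of 3 arrays, while the size was not settled. The part of the dye in that spread was not tested for this gene. Before normalization, morphant intensity was the higher on replicates 1 (192327 against 70955) and 2 (104223 against 65357). Median spot intensities there were also higher for morphant RNA (446.5 against 191 and 153 against 110.5). The sign on these arrays thus rests on the normalization, and no value with median centring was available.

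The factor CHOP, encoded by ddit3, is a bZIP protein that promotes cell death under lasting stress of the endoplasmic reticulum and is a target of ATF4. Its probe (accession NM_001082825) had log2 intensities of 11.56, 12.21 and 12.40 in morphants, against 11.28, 11.99 and 11.85 in wild type. After normalization between arrays replicate 1 was the lowest in both colours and the ranges of the groups overlapped, but on each array the morphant value was the higher. The log2 ratios were 0.28, 0.22 and 0.55 (mean 0.35, SD 0.17, n = 3), with the dye swap highest. 

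The bZIP factor Atf3 is induced by many stresses and can repress ATF4 targets. The atf3 probe (accession NM_200964) had log2 intensities of 10.50, 9.99 and 10.08 in morphants, against 10.19, 9.68 and 9.75 in wild type. Intensities differed more between arrays than between groups, yet the log2 ratios of 0.31, 0.31 and 0.34 were almost equal. Their SD of 0.01 was the smallest of the 8 probes of these genes in the fit, whose median SD was 0.13, against 0.14 over all tested probes. The means of ddit3 and atf3 differed by 0.03 on the log2 scale (SD of the difference over arrays 0.16), with signs that varied between arrays.

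**Figure D2:**
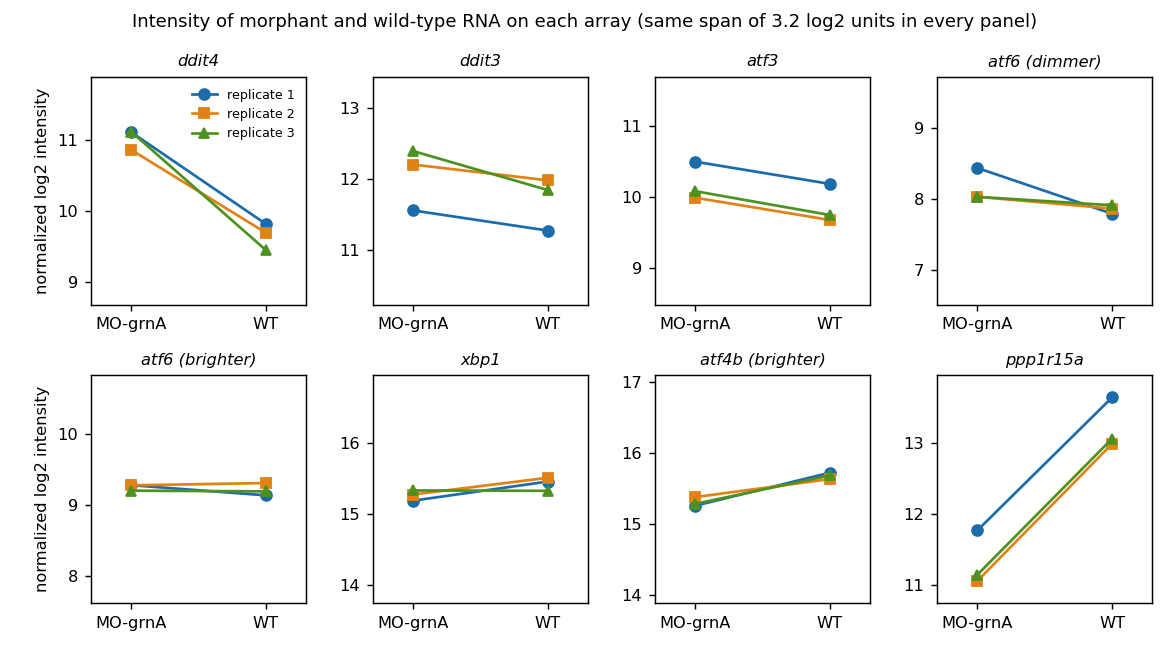
Normalized log2 intensity (vertical axis, the same span in each panel) of morphant (MO-grnA) and wild-type (WT) RNA for the 8 probes in the fit, with a line per replicate that joins the channels of 1 array. Lines of ddit4 and ppp1r15a slope steeply and in opposite directions on all 3 arrays. Those of atf3 are nearly parallel but offset by array, and those of ddit3 are offset too, with the steepest on replicate 3. The xbp1 lines slope on replicates 1 and 2 and are level on replicate 3, and those of the brighter atf6 probe are close to level.

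The gene xbp1 encodes the factor made active by IRE1 splicing, which drives genes for secretion and protein folding. Its probe (accession NM_131874) had log2 intensities of 15.19, 15.27 and 15.33 in morphants, against 15.45, 15.51 and 15.32 in wild type. Replicates 1 and 2 were lower in morphants (log2 ratios -0.27 and -0.24) and the dye swap was level (0.01). The mean was -0.17 (SD 0.15, n = 3) and did not pass the threshold. Centring each array on its median in place of loess gave 0.06, where the median of all tested probes was 0.10.

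GADD34, encoded by ppp1r15a, directs protein phosphatase 1 to eIF2alpha and so ends the block on translation. The ppp1r15a probe (accession NM_001082921) had log2 intensities of 11.77, 11.06 and 11.15 in morphants, against 13.64, 12.99 and 13.06 in wild type. The groups stood apart by more than a log2 unit, and the arrays gave almost the same ratio, -1.87, -1.93 and -1.91 (mean -1.90, SD 0.03, moderated SE 0.08, n = 3). The gene ranked 33 from the bottom of the 9231 named genes. In mammals CHOP raises transcription of this gene, so the values of both are set side by side here. The log2 ratio of ddit3 exceeded that of ppp1r15a by 2.15, 2.15 and 2.46 on replicates 1, 2 and 3.

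REDD1, encoded by ddit4, restrains the growth kinase complex mTORC1 through the TSC proteins. It is known in mammals as a gene raised by ATF4, by low oxygen, by DNA damage and by glucocorticoids. The ddit4 probe (accession NM_200107) had log2 intensities of 11.11, 10.86 and 11.11 in morphants, against 9.82, 9.69 and 9.45 in wild type. Every morphant value exceeded every wild-type value by more than a log2 unit. The log2 ratios were 1.29, 1.17 and 1.67 (mean 1.37, SD 0.26, moderated SE 0.11, n = 3), with the dye swap highest, and the gene ranked 64 from the top of the named genes. Its log2 ratio exceeded that of ddit3 by 1.01, 0.94 and 1.12 on the 3 arrays, and that of ppp1r15a by 3.16, 3.10 and 3.58.

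Read over probes, 4 of the 8 tested probes of these genes had groups that did not overlap in normalized intensity, where 37.6% of all 25071 tested probes did so (18.3% with morphants higher, 19.3% with morphants lower). The higher ones were ddit4 and the dimmer atf6 probe, and the lower ones ppp1r15a and the brighter atf4b probe. The sign was the same on all 3 arrays for 6 of the 8 probes, where 65% of tested probes had a shared sign. Within slide 1, which held replicate 1 alone, the log2 ratio was 1.29 for ddit4 and -1.87 for ppp1r15a, and within slide 2 the means were 1.42 and -1.92.

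**Figure D3:**
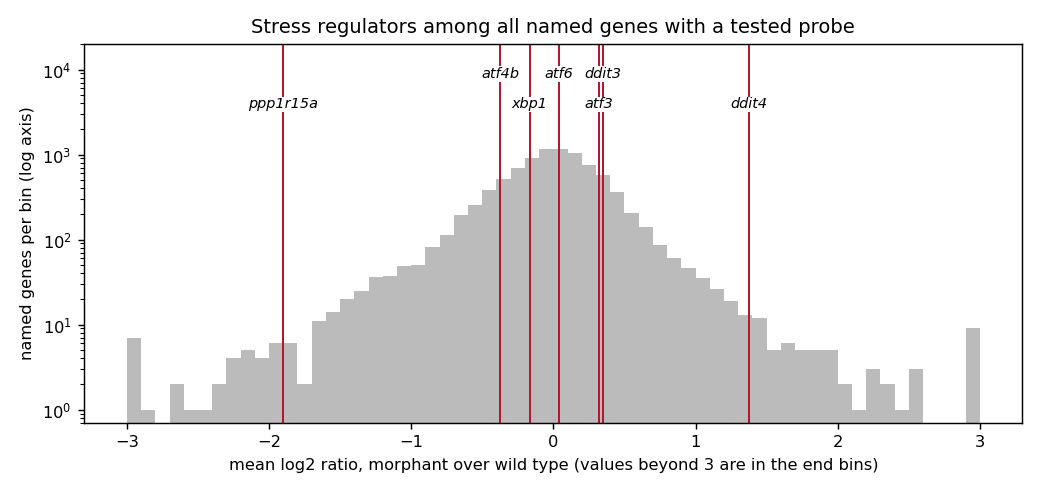
Number of named genes (vertical log axis) by mean log2 ratio of morphant over wild type (horizontal axis, bins of 0.1), with a red line for each stress regulator in the fit. The lines of ppp1r15a (-1.90) and ddit4 (1.37) stand in the thin tails, and the other 5 lie between -0.37 and 0.35, within the bulk of genes.

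The threshold was kept by ddit4 and ppp1r15a under all 11 alternatives that were fitted probe by probe. With median centring in place of loess, or without replicate 3, these were the only members past it. The log2 ratio of atf4b shrank to -0.15 with median centring, where the median of all tested probes was 0.10. Without replicate 3, ddit3 had 0.25, atf3 0.31 and atf4b -0.36, and the call of atf3 also ended without replicate 2, at 0.32. The submitters' own ratios, read from the series' value table on the log2 scale, gave 1.52 for ddit4, 0.37 for ddit3, 0.35 for atf3, -0.41 for the brighter and -0.08 for the dimmer atf4b probe, -0.67 for atf4a, -0.25 for xbp1 and -1.92 for ppp1r15a.

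**Figure D4:**
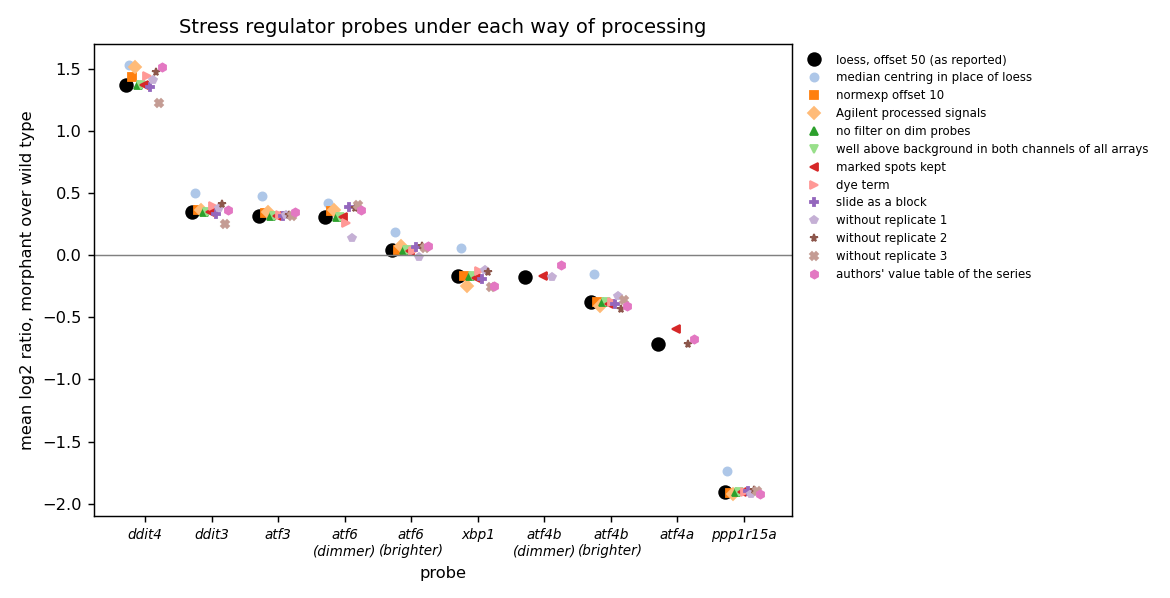
Mean log2 ratio of morphant over wild type (vertical axis) for each probe (horizontal axis) under each way of processing, with the reported value in black. For ddit4 the values run from 1.23 to 1.53 and for ppp1r15a from -1.92 to -1.74, while xbp1 and the brighter atf6 probe have values on both sides of 0.

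Other genes of the same pathways were tested in the same fit, from 8 lists chosen by function with earlier results of these data known. Their adjusted p-values come from the fit across all probes and are not independent support. The share of each list past the threshold (called) stands beside 41.3% of all named genes, 19.3% higher and 22% lower. Upstream of the factors, the list of eIF2alpha kinases and their regulators had 4 rises and 1 fall among 8 measured genes (62.5% called). Its median log2 ratio was 0.18. The largest rise was in ppp1cc, a catalytic subunit of protein phosphatase 1, at 0.85 (SE 0.09, n = 3, adjusted p = 2.7e-04), and its other probe read 0.62. The gene impact, whose product inhibits the kinase GCN2 in mammals, rose by 0.52 (SE 0.09, adjusted p = 0.00388). The haem-regulated kinase gene eif2ak1 rose by 0.32 (SE 0.09, adjusted p = 0.0290) from a dim probe, and its call ended with a dye term, without replicate 1 (0.24) and without replicate 3 (0.31). Against these, the catalytic subunit gene ppp1cb fell by 0.25 (adjusted p = 0.0444), a call that ended without any one of the replicates (-0.29 to -0.20), with an offset of 10 (-0.26) and with a dye term (-0.28). No probe matched eif2ak3 or eif2ak4. The count of 5 called genes on this list was not stable. It was 2 with a dye term, without replicate 1 and without replicate 3, and 3 without replicate 2. With median centring it was 0, and with slide as a block 6.

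Subunits of eIF2 and of its exchange factor eIF2B had 1 rise, 1 fall and 5 not passing among 7 (28.6% called). Their median was 0.09. The gene eif2s1a, which encodes the alpha subunit that the kinases phosphorylate, rose by 0.42 (SE 0.08, adjusted p = 0.00518). The eIF2B catalytic subunit gene eif2b5 fell by 0.36 (SE 0.08, adjusted p = 0.00894), and its call ended without replicate 2 at the same size (-0.36). The second alpha subunit gene, eif2s1b, had a marked spot on replicate 1 and log2 ratios of 0.15 and 0.45 on replicates 2 and 3.

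Genes that ATF4 uses for amino acid supply and redox balance had 2 rises, 1 fall and 8 not passing among 11 (27.3% called). Their median was 0.09. The serine synthesis gene phgdh rose by 0.63 (SE 0.09, adjusted p = 0.00111). The amino acid transporter gene slc38a2 rose by 0.35 (adjusted p = 0.0334) on a dim probe, and its call ended without replicate 2 (0.38) and with a dye term (0.30). A brighter slc38a2 probe, marked on replicate 1, gave -0.18 without that replicate and did not pass. The heavy chain gene slc3a2b, a partner of amino acid transporters, fell by 0.72 (SE 0.08, adjusted p = 4.1e-04), with 2 further probes at -0.56 and -0.70. The asparagine synthetase gene asns, a widely used ATF4 target, had a log2 ratio of 0.32 (SE 0.11) that did not pass (adjusted p = 0.0526), with 0.04, 0.35 and 0.56 on the arrays. Its dimmer probe gave 0.38 (adjusted p = 0.00828). The gene passed with the mean of its probes (0.35), with a dye term (0.38), with slide as a block (0.25) and without replicate 1 (0.46). It passed in no other alternative. The glutathione-degrading enzyme gene chac1 had 0.21 (adjusted p = 0.107) and passed only with slide as a block (0.25). In that setting the list had 5 rises and 2 falls among 11. Called probes over the array then numbered 12223 of 25071, against 9435 in the reported fit.

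A list of stress regulators placed downstream of ATF4 and CHOP had 2 rises and 7 falls among 13 (69.2% called), with a median of -0.33. It holds whole families, such as the sestrins, and not only established targets. Whether ATF4 or CHOP controls its genes in these embryos was not tested, so the falls are not a measure of their activity. The falls were led by sesn3 (-1.50, SE 0.09, adjusted p = 1.6e-05), a sestrin that restrains mTORC1, and ero1a (-1.23, SE 0.08, adjusted p = 3.1e-05), an oxidase of disulphide formation in the endoplasmic reticulum that CHOP raises in mammals. The cell death gene bbc3 fell by 1.23 (SE 0.09, adjusted p = 5.8e-05). The pseudokinase gene trib3, which CHOP and ATF4 raise in mammals, fell by 0.33 (SE 0.09, adjusted p = 0.0198), a call that ended without any one of the replicates (-0.38 to -0.26), with a dye term (-0.31) and with Agilent's processed signals (-0.31). In the other direction, sesn2 rose by 0.61 (SE 0.08, adjusted p = 8.4e-04), while a dimmer sesn2 probe gave 0.04 and the mean of the pair was 0.33, past the threshold. The bZIP gene cebpd rose by 0.32 (adjusted p = 0.0312), and its call ended without replicate 1 or replicate 3 (0.27 in each) and with a dye term. A second cebpd probe gave 0.53 (adjusted p = 0.00269).

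In the arm of IRE1 and XBP1, 7 genes rose, 3 fell and 18 did not pass among 28 (35.7% called). The median was 0.03. The translocon-associated gene ssr1 rose by 1.66 (SE 0.11, adjusted p = 2.7e-05) and a second probe gave 1.89. With marked spots kept, another of its 3 probes entered as the brightest and gave 0.71, still past the threshold. The signal peptidase subunit gene spcs2 (0.93, adjusted p = 1.3e-04) and the COPII coat gene sec31a (0.69, adjusted p = 0.00107) rose as well. The signal recognition particle gene srp68 fell by 1.27 (SE 0.12, adjusted p = 1.9e-04) on its brightest probe, but 2 others gave -0.15 and -0.21 and the mean of its probes was -0.54. The translocon gene sec61a1a fell by 0.53 (adjusted p = 0.00607) and the retrieval receptor gene kdelr2a by 0.29 (adjusted p = 0.0227). Both calls ended without replicate 3 (-0.48 and -0.31), and that of kdelr2a also without replicate 2 (-0.28), with a dye term (-0.28) and with Agilent's processed signals (-0.26). The genes most used as XBP1 targets did not pass, with log2 ratios of 0.04 for dnajb9a (adjusted p = 0.755) and -0.22 for edem1 (adjusted p = 0.0896). For dnajb9b, marked on replicate 1, replicates 2 and 3 gave 0.07 and 0.10.

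Among ATF6-arm genes and chaperones of the endoplasmic reticulum, 5 rose, 2 fell and 14 did not pass of 21 (33.3% called). The median was 0.11. The calreticulin gene calr3b rose by 0.76 (SE 0.10, adjusted p = 8.7e-04), and a second probe in the fit read 0.85. Another of its 3 probes entered as the brightest with marked spots kept (0.60) and without replicate 1 (0.55), past the threshold in both. The secreted stress protein gene manf rose by 0.64 (SE 0.08, adjusted p = 9.3e-04) and the prolyl isomerase gene fkbp11 by 0.41 (adjusted p = 0.00734). Falls were small, in p4hb (-0.33, adjusted p = 0.0210), of the protein disulphide isomerases, and mbtps2 (-0.37, adjusted p = 0.0239), a protease that cuts ATF6, of which a second probe gave -0.01. The calls of fkbp11 (0.35) and p4hb (-0.25) ended without replicate 3, and that of mbtps2 without replicate 2 (-0.29), with Agilent's processed signals (-0.36) and with the mean of its probes (-0.19). The chaperone gene hspa5, which encodes BiP and is the usual readout of this response, was not in the fit because its probes had marked spots. Its unmarked values were 0.83 and 0.58 on replicates 1 and 3, both higher in morphants. With the marked spots kept, one hspa5 probe gave 0.79, 0.67 and 0.60 and the other 0.74, 0.82 and 0.53. In that setting hspa5 entered the fit by the second of these, the brighter one, at 0.70, the highest value of the list. The list then had 6 rises and 3 falls among 24 measured genes. The chaperone gene hsp90b1 had -0.19 (adjusted p = 0.0962), while a brighter hsp90b1 probe, marked on replicate 1, passed in both settings where it entered the fit, with -0.56 without that replicate (adjusted p = 2.7e-04) and -0.66 with marked spots kept (adjusted p = 0.00146). The gene atf6b, a relative of atf6, had -0.15 (adjusted p = 0.200) and -0.01 on another probe.

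Genes for degradation from the endoplasmic reticulum had 1 rise, 5 falls and 13 not passing among 19 (31.6% called), with a median of -0.12. That median was 0.04 with median centring, where that of all tested probes was 0.10. It was 0.02 with the mean of all probes of a gene. The falls were led by ubxn4 (-0.59, adjusted p = 0.00403), selenok (-0.50, adjusted p = 0.00233) and aup1 (-0.45, adjusted p = 0.00434), and the segregase gene vcp rose by 0.34 (adjusted p = 0.0239), with 0.25 and no call without replicate 3. The stress-induced gene herpud1 had -0.02 (adjusted p = 0.889) on its brighter probe and 0.28 (adjusted p = 0.0292) on a dimmer one. Among other bZIP factors, 2 rose, 3 fell and 10 did not pass of 15 (33.3% called). The small Maf gene mafgb rose by 0.96 (SE 0.08, adjusted p = 1.1e-04) and junba by 0.54 (adjusted p = 0.00160). The immediate early gene fosab fell by 1.07 (SE 0.08, adjusted p = 5.4e-05), with further probes at -1.15, -0.87 and -0.16, batf fell by 0.68 (adjusted p = 0.00102) and batf3 by 0.33 (adjusted p = 0.0147; -0.31 and no call without replicate 3), with a second batf3 probe at -0.25.

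**Figure D5:**
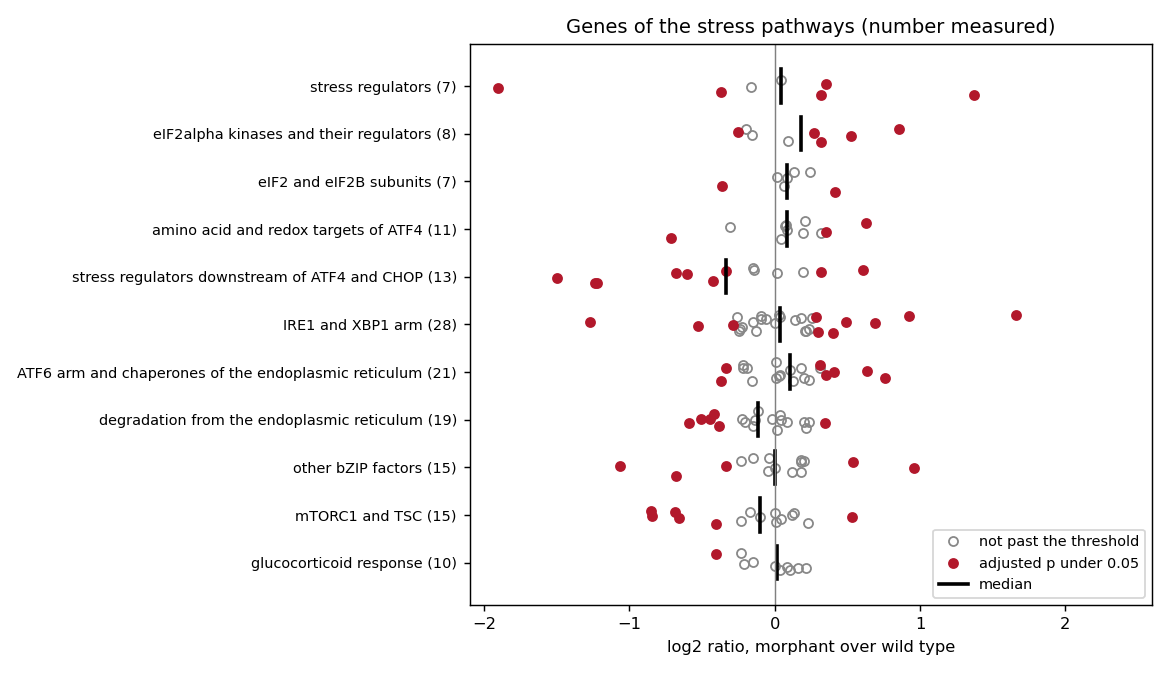
Log2 ratio of morphant over wild type (horizontal axis) of each measured gene, by list (vertical axis, with the number measured), filled red where the adjusted p was under 0.05 and with a black bar at the list's median. The regulators in the top row span -1.90 to 1.37 around a median of 0.04, and the medians of the other lists lie between -0.33 and 0.18.

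Over all 11 pathway lists, 1 of which is not described here, 68 of 167 measured genes passed, 26 higher and 42 lower, which is 40.7% beside the background of 41.3%. With median centring 4 of the 167 passed, among them ssr1 and srp68.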

How the data were processed

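The authors quantified the arrays with Agilent Feature Extraction, version 10.5.1.1 per the file headers and 8.5.1.1 per the submitters' processing notes. Per the file headers, the deposited files hold the median pixel intensity and local background intensity of each spot in both dyes. They also hold intensities processed by that software and log10 values of red over green. The deposited value table holds the same log10 ratios with the sign of replicate 3 turned.

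All ratios were recomputed from the median intensities with limma 3.58.1 under R 4.3.3. The normexp method with an offset of 50, which pulls ratios of dim probes toward 0, was followed by loess within each array. Controls had weight 0, as did spots with the software's outlier marks for uneven pixels or for disagreement with their copies. The sign of replicate 3 was turned, so each log2 ratio is morphant over wild type, and its direction rests on the dyes in the labels. Spots of a probe were averaged. Intensities per channel are after loess and Aquantile normalization. Probes entered the fit when an unmarked spot was present on each array and one group exceeded background clearly on all 3, which held for 25071 of 43603 probes. No spot was saturated. The ratios were tested against 0 with lmFit and eBayes, two-sided, with Benjamini-Hochberg adjustment across the tested probes (threshold 0.05). Precision is limited by the number of arrays, 3. A gene takes its brightest tested probe. Replicate 1 was on slide 1, replicates 2 and 3 on slide 2. The procedure was also run on simulated data with independent noise and no dye or slide effect, so that run cannot speak to such effects here.

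Probes were named by accession from RefSeq's genes of assembly GRCz12tu (16770 probes matched). No coordinates are given, because the array's build is older. Members and gene lists were chosen with earlier results of these data known. Named genes are all members, up to 3 highest and 3 lowest called genes of each list with a shared sign on all arrays, and a set of well-known pathway genes whatever their value; 1 list and its genes are not reported here. The alternatives were median centring, an offset of 10, Agilent's processed signals, no filter or a stricter filter on dim probes, marked spots kept, a dye term, slide as a block, the mean of all probes of a gene, leaving out each replicate and, for the members, the deposited value table.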

Additional observations from a re-analysis of the deposited data

How the results depend on the processing

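The number of called probes was 9435 and fell to 715 (409 higher, 306 lower) with median centring in place of loess, and the cause was not tested. Over the fits that left out 1 replicate it ran from 6288, without replicate 3, to 9371. The number of called members was 5, against 2 with median centring and 2 to 5 with a replicate left out, where 2 came from leaving out replicate 3. Without replicate 2 the 5 called members included atf4a and not atf3. The number of called pathway genes was 68, against 4 with median centring and 50 to 65 with a replicate left out. The other alternatives kept these counts within 1.5 times. The log2 ratio of slc38a2 (0.35) was -0.21 with marked spots kept and ran from -0.18 to 0.46 with a replicate left out, because a brighter probe entered the fit. Median centring ended the calls of 41 of the 45 named pathway genes that passed and moved the median of all tested probes to 0.10. Standard errors grew in that setting. In the examples here the log2 ratio moved upward, which made a rise larger and a fall smaller. For phgdh the SE went from 0.09 to 0.30 and the log2 ratio from 0.63 to 0.84. For slc3a2b the SE went from 0.08 to 0.27 and the log2 ratio from -0.72 to -0.56. A dye term ended the calls of 8 of the named pathway genes. The test against 0 was itself paired within arrays, so there was no further replicate block to fit. Low signal limits the dim probes, among them those of eif2ak1, slc38a2, rragcb and batf and the dimmer one of atf6.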

Other observations

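Of 15 genes of mTORC1 and its TSC regulators, 5 fell, 1 rose and 9 did not pass (40% called, beside 41.3% of named genes). The median of -0.10 was 0.06 with median centring, where that of all tested probes was 0.10. It was 0.01 with the mean of all probes of a gene. The GTPase gene rheb, which activates mTORC1, fell by 0.85 (SE 0.09, adjusted p = 3.8e-04). Falls were also seen in lamtor4 (-0.85, SE 0.09, adjusted p = 2.7e-04) and flcn (-0.68, SE 0.08, adjusted p = 5.0e-04). The GTPase gene rragcb rose by 0.53 (SE 0.10, adjusted p = 0.00419) from a dim probe, with 0.91 on Agilent's processed signals. The kinase gene mtor had -0.10 (adjusted p = 0.407), and its 2 further probes lay on the other side of 0, at 0.23 and 0.10, and did not pass. No probe matched tsc2, so the TSC proteins were covered only in part. Of 10 glucocorticoid response genes, dusp1 fell by 0.40 (SE 0.08, adjusted p = 0.00627) and 9 did not pass, so 10% were called.

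By the distance between the 3 log2 ratios, the named genes nearest to ddit4 among 9231 were endouc (distance 0.21), tspan13a (0.23) and sgcg (0.23). Nearest to ppp1r15a were irs2a (0.14), sox32 (0.16) and ved (0.18). Such likeness rests on 3 arrays and is a description only.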
